A study of Rattus norvegicus with 12 samples.

Results

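The C-type lectin genes were followed in RNA from the left ventricle of 12 rats. The members are every row of the gene table whose symbol starts with Clec or Klr, 52 of the 30560 genes listed, of which 33 are Clec and 19 are Klr genes. The family was selected on the rise of one member, Clec2dl1, in MI versus Sham. Its values against Sham are therefore given as a description, with no p and outside the counts of called members, while the other members entered by symbol alone. The groups of 4 male Wistar rats, 7 weeks old at surgery, were sequenced with 1 library per rat. The Sham rats had sham surgery and vehicle (0.5% carboxymethylcellulose), the MI rats had ligation of the left anterior descending coronary artery and the same vehicle, and the MI + UA rats had the ligation and Urolithin A (UA, 50 mg/ml in the labels), a gut bacterial metabolite of ellagitannins. UA or vehicle was given by daily gavage for 8 weeks. The tissue was formalin-fixed and paraffin-embedded. The study's table of heart measurements places rat 66, an MI + UA rat by its label, among the MI rats on vehicle. It was kept in MI + UA here.

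C-type lectin domains are protein folds that bind sugars, lipids or other proteins. On macrophages, dendritic cells and neutrophils they serve as receptors for microbial and dead-cell material, and many signal through an ITAM motif, carried by the receptor or by the adaptors Fcer1g and Tyrobp, to the kinase Syk. The Klr receptors sit on natural killer (NK) cells and some T cells. Those of the Klrb1 group recognise proteins of the Clec2 family, whose genes lie among theirs in the NK gene complex. After infarction, myeloid cells clear dead muscle and fibroblasts lay down scar.

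Most members were thinly covered. The libraries held 6228706 to 19031695 reads on genes, so that 1 read was worth 0.0563 to 0.168 CPM (reads per 1000000 reads of a TMM-scaled library). The 52 members received 48557 reads over the 12 rats, and in single rats 349.4 to 477.3 CPM. No read fell on 6 members, Clec4n, Clec4f, Clec18a, Clec4m, Klrb1 and Clec2h. Clec4b2 had 1 read and Klrh1 had 4, under the minimum of 10 reads for testing. The other 44 entered the fit, 27 Clec and 17 Klr genes, among 18182 genes in all. Of the 52, 19 had 10 or more but under 100 reads, 18 had from 100 to under 1000 and 7 had 1000 or more, and 27 had reads in all 12 rats. For 4 tested members, Klra5, Klra1, Clec2d and Clec3a, no Sham rat had a read, so they passed the minimum through the infarcted rats.

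**Figure D1:**
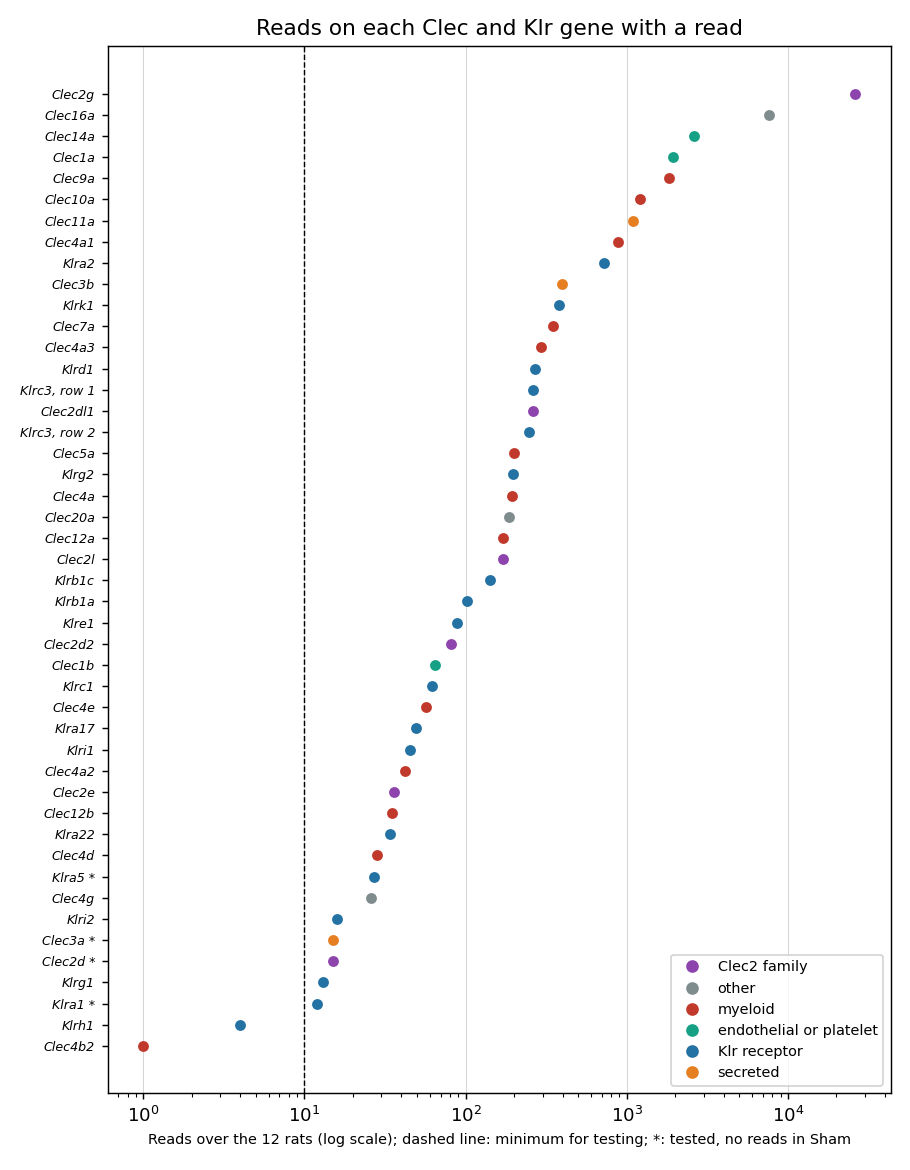
Reads on each of the 46 Clec and Klr genes with at least 1 read, summed over the 12 rats (x axis, log scale), coloured by role. The dashed line marks the minimum of 10 reads for testing, and an asterisk a tested gene with no Sham read; Clec2g with 26037 reads stands apart from the next gene, Clec16a, with 7661.

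The reads were uneven between roles. The Clec2 family took 54.8% of them, nearly all through Clec2g. The myeloid receptors took 10.9%, the endothelial and platelet lectins 9.53%, the Klr receptors 5.51% and the secreted lectins 3.11%. Clec16a, which carries the family name but is known as a regulator of autophagy and mitophagy, made up most of the remaining 16.2%. Transcript lengths were not used here, so read numbers do not rank one gene's level above another's.

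Clec2dl1 (ENSRNOG00000007866), a Clec2d-like gene, had at most 3 reads in any Sham rat. Its reads numbered 0 in rat 12, 1 in rat 17, 0 in rat 32 and 3 in rat 38. The MI rats had 32, 5, 28 and 68 reads (rats 36, 57, 61 and 89) and the MI + UA rats 19, 52, 25 and 29 (rats 29, 58, 64 and 66). Every infarcted rat was above every Sham rat, although rat 57, with 5 reads, came close to Sham rat 38.

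In CPM, Clec2dl1 measured 0, 0.144, 0 and 0.358 in Sham rats 12, 17, 32 and 38. The MI rats 36, 57, 61 and 89 measured 2.34, 0.784, 2.91 and 5.54 CPM, and the MI + UA rats 29, 58, 64 and 66 measured 1.09, 6.68, 3.38 and 1.63 CPM. The highest infarcted rat of each treatment thus lay several-fold above the lowest. Group means were 0.126 ± 0.169 CPM for Sham, 2.89 ± 1.98 for MI and 3.19 ± 2.52 for MI + UA (SD, n = 4). The fitted log2 fold change against Sham was 4.35 (SE 0.86) in MI and 4.31 (SE 0.87) in MI + UA. These folds rest on 4 Sham reads in all. Without Sham rat 38, which held 3 of them, they were 5.66 and 5.61. Without MI rat 89 the MI value was 3.83, and without MI + UA rat 58 the MI + UA value was 3.66. Pooled over rats, the rate was 23.2 times that of Sham in MI (95% exact interval 8.84 to 86.2) and 18.1 times in MI + UA (6.9 to 67.5). Such intervals cover counting error only and not the spread between rats.

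The upstream sequences of the Clec2 genes differ in how far they match. The following RefSeq sequences (build GRCr8, which is not the build of the counts) are the 250 bases before the gene start, each on the plus strand of chromosome 4. They are shown to compare Clec2dl1 with Clec2d, the gene it is named after, and with Clec2g, which had the most reads of the family; they are not transcript sequence and do not show how reads were assigned. Capitals mark exact runs of 8 or more bases shared between the Clec2dl1 stretch and that of Clec2d, and in Clec2g those shared with Clec2dl1.
Clec2dl1, chr4:163949438-163949687: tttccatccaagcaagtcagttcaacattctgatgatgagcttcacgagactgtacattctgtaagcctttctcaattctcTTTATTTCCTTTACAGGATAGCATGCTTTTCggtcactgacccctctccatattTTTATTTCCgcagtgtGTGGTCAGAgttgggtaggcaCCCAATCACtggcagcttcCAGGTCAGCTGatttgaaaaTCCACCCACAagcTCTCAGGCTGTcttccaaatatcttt
Clec2d, chr4:163902383-163902632: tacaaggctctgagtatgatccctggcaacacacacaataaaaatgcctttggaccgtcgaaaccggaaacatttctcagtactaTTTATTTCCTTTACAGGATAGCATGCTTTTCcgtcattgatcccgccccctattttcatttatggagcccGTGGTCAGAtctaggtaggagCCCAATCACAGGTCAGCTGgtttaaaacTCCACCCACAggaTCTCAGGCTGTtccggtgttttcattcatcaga
Clec2g, chr4:164303643-164303892: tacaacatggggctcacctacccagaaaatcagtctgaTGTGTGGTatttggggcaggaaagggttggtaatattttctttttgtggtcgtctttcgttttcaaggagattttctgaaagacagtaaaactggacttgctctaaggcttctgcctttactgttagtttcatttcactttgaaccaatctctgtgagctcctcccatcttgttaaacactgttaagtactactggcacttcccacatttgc
The longest capital run is common to Clec2dl1 and Clec2d, and Clec2g has 8 capital bases in all. In a local alignment the Clec2d stretch matched Clec2dl1 at 75.0% of 192 columns, and the Clec2g stretch at 61.9% of 118 columns. The letters TGTGGT, a core that RUNX factors bind, were found on either strand of these 250 bases in Clec2dl1 and Clec2g, in 15 of the 41 member symbols in the RefSeq promoter table, and in 14.5% of all 33469 promoters. TGACTCA, an AP-1 core, was in 1 member, Clec2h, against 4.05% of promoters, and GAGGAAGT, an ETS core of the PU.1 type, was in 0 members against 2.04%. TATAAA, the TATA box, was in 7 members against 12.9% of promoters. These searches were chosen after the sequences were seen and are letter matches only.

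The relatives Clec2d and Clec2g are described beside Clec2dl1. Clec2d (ENSRNOG00000048726), whose human counterpart LLT1 is a ligand of an NK receptor, had 0 reads in Sham, 5 in MI and 10 in MI + UA, with the 10 in a single rat. Pooled over rats, Clec2d was at 1.16 times a floor of 3 reads over the Sham group in MI and 1.93 times in MI + UA. These ratios leave out counting error and the spread between rats. Clec2g (ENSRNOG00000059538), a ligand of the Klrb1 group in mice, measured 211, 210, 200 and 217 CPM in Sham rats 12, 17, 32 and 38. It measured 237, 203, 271 and 256 CPM in MI rats 36, 57, 61 and 89, and 173, 268, 196 and 170 CPM in MI + UA rats 29, 58, 64 and 66. The Sham rats lay close together and the infarcted rats spread to both sides of them. Against Sham, the log2 fold change of Clec2g was 0.21 (SE 0.12, adjusted p = 0.316) in MI and -0.06 (SE 0.12, adjusted p = 0.836) in MI + UA. Per 1000 reads of Clec2g there were 0 to 1.64 reads of Clec2dl1 in Sham rats, 3.86 to 21.6 in MI rats and 6.26 to 24.9 in MI + UA rats. Clec2l, Clec2d2 and Clec2e had 36 to 170 reads each, and none passed the test. The authors counted only reads placed at one position, so reads that fit several copies are in no gene, and shares between near-identical Clec2, Klra and Klrc genes are uncertain.

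Leaving Clec2dl1 aside, 5 of 43 members, or 11.6%, had an adjusted p under 0.05 in MI versus Sham (edgeR quasi-likelihood test, Benjamini-Hochberg over all genes), each of them higher in MI. They were Clec11a, Clec3b, Clec10a, Clec5a and Klra2, and no member was called lower. Over all genes tested 5.82% were called higher and 5.53% lower. Of the 39 such members that had Sham reads, 7, or 17.9%, were higher in MI without overlap. Of all genes tested, with or without Sham reads, 8.12% were apart in that direction. The median log2 fold change was 0.40 over the 43 and 0.03 over all genes. Over the 43 it was 0.21 with the 4 members unread in Sham set at their ratio to the Sham floor, or at 0 where under it. In MI + UA versus Sham, which uses the same Sham rats, 4 of the 43, or 9.3%, were called higher, Clec11a, Clec5a, Clec7a and Clec3b, and none lower, where 5.16% of all genes were called higher and 4.27% lower. The median there was 0.42, or 0.38 set the same way, against 0.02 over all genes.

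**Figure D2:**
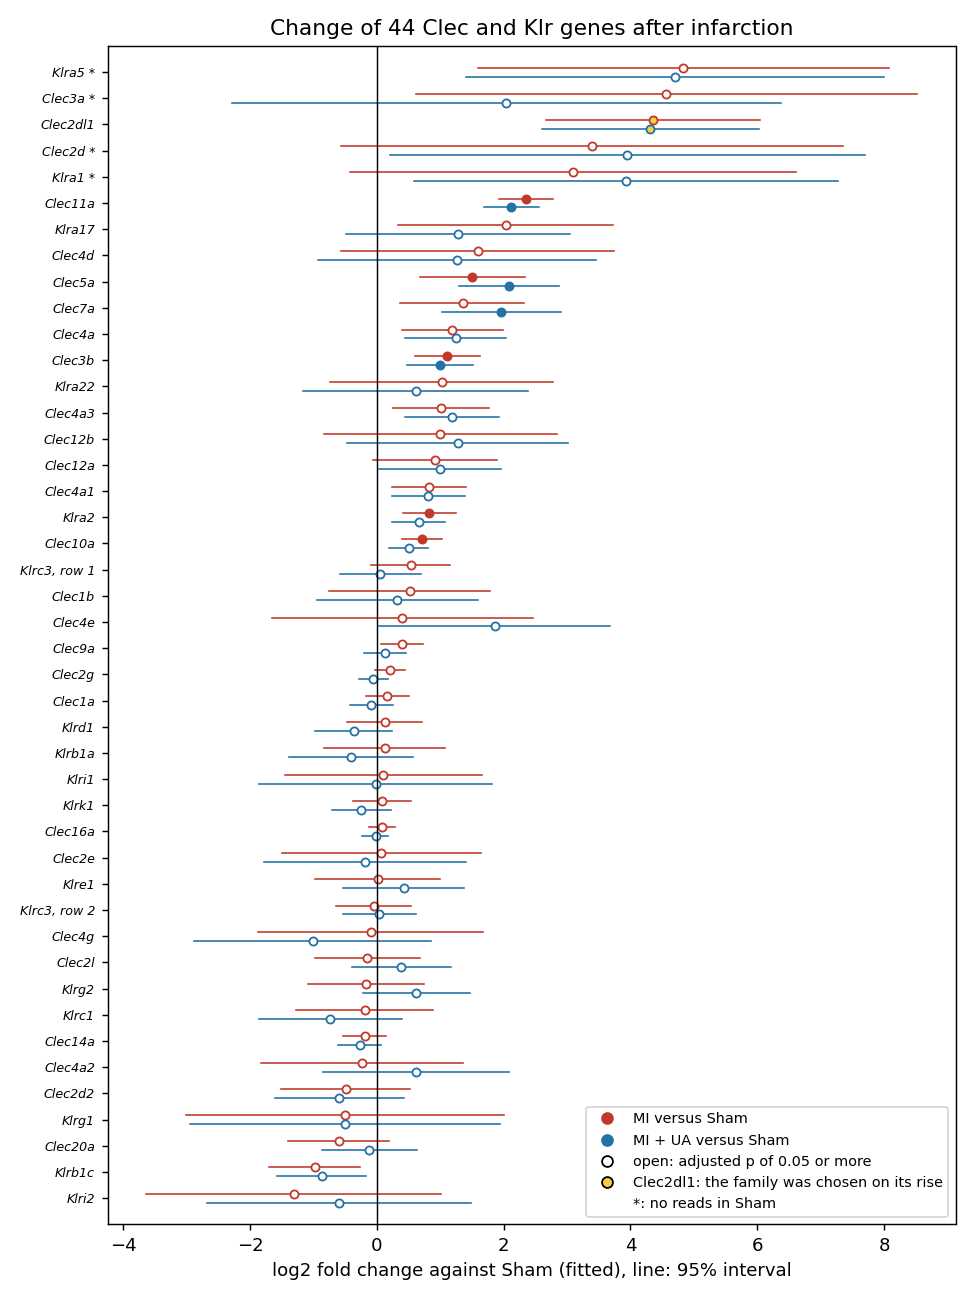
Fitted log2 fold change against Sham (x axis) of the 44 fitted members, in MI (red) and in MI + UA (blue), with approximate 95% intervals. Filled points have an adjusted p under 0.05, yellow marks Clec2dl1, on whose rise the family was chosen, and an asterisk marks a gene with no Sham read, whose fitted fold is no bound. The intervals of Klra5, Clec3a, Clec2d and Klra1 are several times as wide as those of Clec11a, Clec3b and Clec10a.

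Levels of cell type markers differed between the groups, and in bulk RNA more cells of a type and more RNA per cell cannot be told apart. Of 10 macrophage markers 9 were called higher in MI, and their summed level was 132 to 165 CPM in Sham, 265 to 423 in MI and 224 to 454 in MI + UA. Of 8 fibroblast markers 6 were called higher, with sums of 815 to 1000, 1370 to 2460 and 1410 to 2540 CPM. Of 10 cartilage and bone markers 9 were called higher, with sums of 26.7 to 33.2, 82 to 139 and 71.3 to 92.9 CPM. The 139 CPM was MI rat 36. Of the 9, Col2a1 and Acan were uneven between MI rats, at 7.4 ± 14.8 and 2.78 ± 4.32 CPM (SD, n = 4), and overlapped Sham. In MI + UA 7 of the 10 were called higher. All 7 cardiomyocyte markers in the table were called lower, and their sums, 44000 to 50000 CPM in Sham, 30500 to 36200 in MI and 32200 to 43100 in MI + UA, were the highest of the marker lists in every rat. Heart muscle is the labelled tissue. Their part in the changes of the lectin genes was not tested.

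Among the secreted lectins, Clec11a and Clec3b rose in both comparisons. Clec11a (ENSRNOG00000019138) encodes osteolectin, a secreted growth factor known to promote bone formation. It measured 2.26, 2.74, 2.86 and 1.79 CPM in Sham rats 12, 17, 32 and 38, and 13.6, 8.47, 10.8 and 15 CPM in MI rats 36, 57, 61 and 89. The MI + UA rats 29, 58, 64 and 66 measured 9.94, 11.9, 11.9 and 8.27 CPM. The infarcted rats were all well clear of Sham, with the lowest at 8.27 CPM. The mean went from 2.41 ± 0.491 CPM in Sham to 12 ± 2.91 in MI and 10.5 ± 1.77 in MI + UA (SD, n = 4). On the log2 scale Clec11a rose by 2.35 (SE 0.22, adjusted p = 8.83e-07) in MI and 2.12 (SE 0.22, adjusted p = 3.49e-06) in MI + UA.

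Clec3b (ENSRNOG00000004540) encodes tetranectin, which binds plasminogen. It measured 1.63, 1.59, 1.85 and 2.27 CPM in Sham rats 12, 17, 32 and 38, and 3.66, 3.92, 4.57 and 3.91 CPM in MI rats 36, 57, 61 and 89. In MI + UA rats 29, 58, 64 and 66 it measured 3.03, 3.34, 5.82 and 3.09 CPM. Both infarcted groups lay above Sham without overlap, and rat 64 stood above the other MI + UA rats. Clec3b rose by 1.11 on the log2 scale (SE 0.26, adjusted p = 0.00752) in MI and 1.00 (SE 0.26, adjusted p = 0.0186) in MI + UA. The MI + UA value was 0.76 without rat 64 (adjusted p = 0.0684), 0.94 without Sham rat 12 (adjusted p = 0.0531) and 0.94 without Sham rat 17 (adjusted p = 0.0548). Clec3a, a cartilage lectin, had 0 reads in Sham, 13 in MI, all in 1 rat, and 2 in MI + UA.

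**Figure D3:**
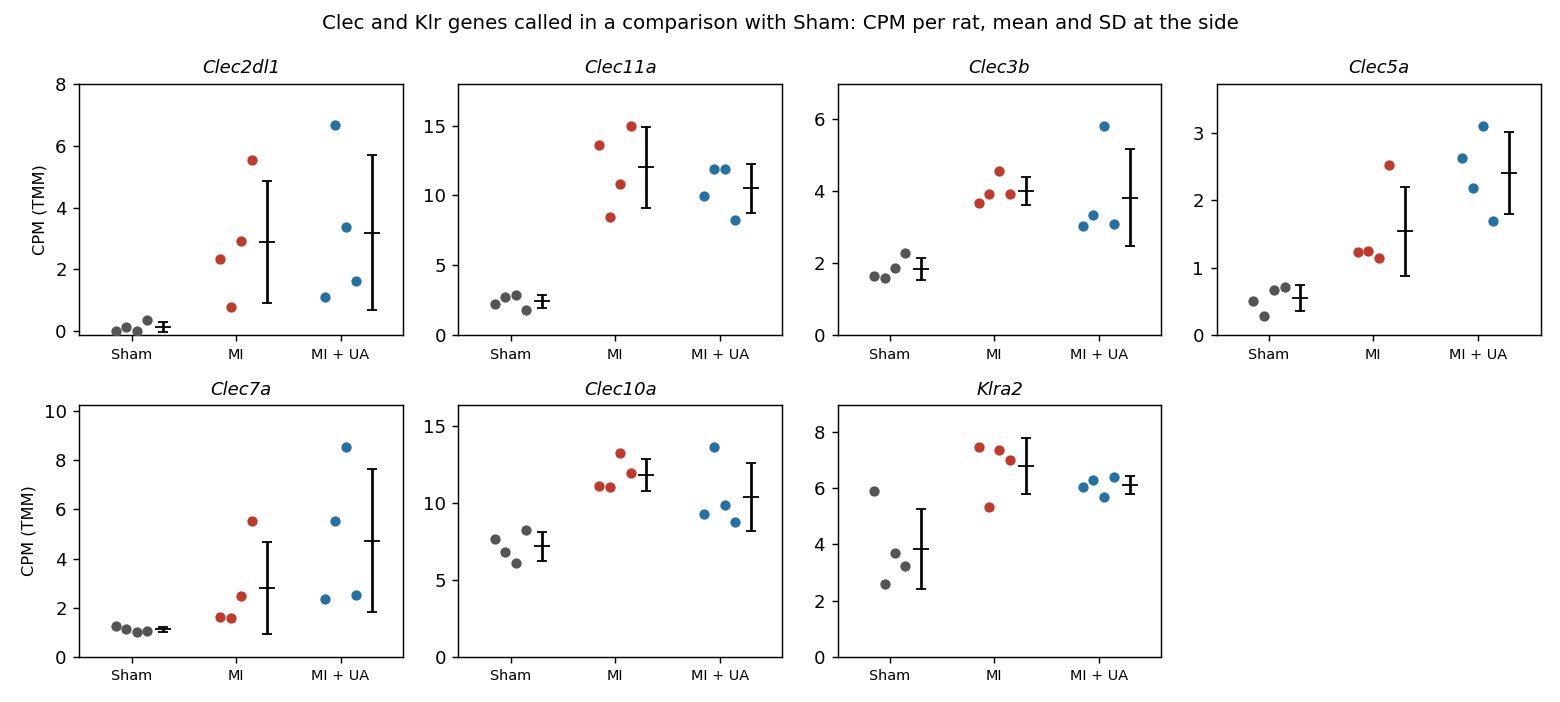
CPM per rat (y axis, 1 panel a gene) of Clec2dl1 and the 6 other members called against Sham, in Sham (grey), MI (red) and MI + UA (blue). Points are rats, and the bar at the side is the mean with its SD (n = 4). Klra2 is the panel in which Sham and infarcted rats overlap, through Sham rat 12 at 5.9 CPM.

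Of 12 tested myeloid receptor genes, 2 were called higher in MI versus Sham and 2 in MI + UA versus Sham, beside 5.82% and 5.16% of all genes. Their fitted fold changes were positive in 11 of 12 and 12 of 12, with medians of 0.96 and 1.21 on the log2 scale, and over all genes 53% and 52.3% were positive. The planned lists also placed Clec1a and Clec4g among the myeloid lectins, and here they are counted under other roles. Their log2 fold changes were 0.16 and -0.09, respectively, in MI and -0.09 and -1.01 in MI + UA. Clec10a (ENSRNOG00000018715), the macrophage galactose lectin that takes up glycoproteins, measured 7.65, 6.78, 6.06 and 8.23 CPM in Sham rats 12, 17, 32 and 38. It measured 11.1, 11, 13.2 and 11.9 CPM in MI rats 36, 57, 61 and 89, and 9.26, 13.6, 9.88 and 8.78 CPM in MI + UA rats 29, 58, 64 and 66. No infarcted rat was as low as the highest Sham rat. Clec10a rose by 0.71 on the log2 scale in MI (SE 0.16, adjusted p = 0.00525). In MI + UA the value was 0.50 (SE 0.16, adjusted p = 0.0538). It was called in 4 of 19 alternative settings, with values from 0.35, without rat 58, to 0.58, with rat 66 counted as MI, and adjusted p from 0.0319 to 0.183.

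Clec5a (ENSRNOG00000026306), an activating receptor of monocytes and neutrophils that pairs with Tyrobp, rose in both infarcted groups. Its reads were 4, 2, 4 and 6 in Sham rats 12, 17, 32 and 38, which is 0.502, 0.289, 0.673 and 0.715 CPM. The MI rats 36, 57, 61 and 89 had 1.24, 1.25, 1.14 and 2.53 CPM, and the MI + UA rats 29, 58, 64 and 66 had 2.63, 2.18, 3.11 and 1.69 CPM. The MI rats other than rat 89 were nearly level, and rat 89 lay at about the height of the MI + UA rats. Clec5a rose by 1.5 on the log2 scale (SE 0.42, adjusted p = 0.0238) in MI and 2.09 (SE 0.40, adjusted p = 0.00205) in MI + UA. Without rat 89 the MI value was 1.13 (adjusted p = 0.123), without Sham rat 12 it was 1.46 (adjusted p = 0.0587), and without Sham rat 17 it was 1.31 (adjusted p = 0.075).

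Clec7a (ENSRNOG00000054251) encodes dectin-1, the receptor for fungal beta-glucans. It measured 1.25, 1.15, 1.01 and 1.07 CPM in Sham rats 12, 17, 32 and 38. It measured 1.61, 1.57, 2.49 and 5.54 CPM in MI rats 36, 57, 61 and 89, and 2.34, 5.52, 8.53 and 2.53 CPM in MI + UA rats 29, 58, 64 and 66. Sham was tight, and all infarcted rats lay above it, with MI rats 36 and 57 the nearest. Clec7a rose in MI + UA, with a log2 fold change of 1.96 (SE 0.48, adjusted p = 0.0119). In MI the value was 1.35 (SE 0.50, adjusted p = 0.0929), and without rat 89 it was 0.74 (adjusted p = 0.416). The MI value was called in 3 of 19 alternative settings. The difference between the infarcted groups was 0.62 (SE 0.40, adjusted p = 1), and it was 0.19 without MI + UA rat 64 and 1.23 without MI rat 89.

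The other myeloid receptors did not pass the test in either comparison as fitted. Clec4a, an inhibitory receptor of dendritic cells, came nearest in MI, with 0.813 ± 0.164 CPM in Sham, 1.83 ± 0.721 in MI and 2.07 ± 0.873 in MI + UA (SD, n = 4). Its adjusted p was 0.0657 and 0.0598, and both infarcted groups lay above Sham without overlap. Its relatives Clec4a1 and Clec4a3 had log2 fold changes of 0.82 and 1.01 in MI (adjusted p = 0.0822 and 0.103) and of 0.81 and 1.19 in MI + UA (adjusted p = 0.0957 and 0.052). Over 19 alternative settings, MI + UA versus Sham was called for Clec4a3 in 7, for Clec4a in 3 and for Clec4a1 in 1, and MI versus Sham for Clec4a1 in 3 and for Clec4a3 in 1. Clec12a, an inhibitory receptor that senses uric acid crystals, had 0.92 and 0.99 (adjusted p = 0.279 and 0.247). Clec4e, or Mincle, which senses dead cells and mycobacterial lipid, had 7 reads in Sham, 13 in MI and 37 in MI + UA, with log2 fold changes of 0.40 and 1.86 (adjusted p = 0.874 and 0.253). Clec4d, its partner, had 3, 13 and 12 reads. Clec12b had 4, 12 and 19 reads, and Clec4a2 had 9, 11 and 22.

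Clec9a (ENSRNOG00000051690), the dead-cell receptor of cross-presenting dendritic cells, did not pass the test. In RefSeq order it lies next to Clec1a (ENSRNOG00000060460), a lectin of endothelial and dendritic cells. Clec9a measured 14.9, 12.7, 14.6 and 11 CPM in Sham rats 12, 17, 32 and 38 and 15.9, 23.1, 15.6 and 16.5 CPM in MI rats 36, 57, 61 and 89. It measured 14, 20.3, 11.9 and 12.5 CPM in MI + UA rats 29, 58, 64 and 66. MI lay above Sham without overlap, through a narrow gap, while MI + UA overlapped Sham. The log2 fold change was 0.40 (SE 0.17, adjusted p = 0.143) in MI and 0.13 (SE 0.17, adjusted p = 0.721) in MI + UA.

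Clec1a measured 20.4, 13.7, 16.5 and 13.7 CPM in Sham rats 12, 17, 32 and 38 and 15.3, 21, 20.6 and 16.1 CPM in MI rats 36, 57, 61 and 89. In MI + UA rats 29, 58, 64 and 66 it measured 14, 21.6, 13.1 and 12.8 CPM. The 3 groups overlapped, and the log2 fold changes were 0.16 (SE 0.17, adjusted p = 0.629) and -0.09 (SE 0.17, adjusted p = 0.834). The reads of the 2 genes ran close to each other in every rat. Clec9a had 0.73 to 0.926 reads per Clec1a read in Sham, 0.758 to 1.1 in MI and 0.907 to 1 in MI + UA. Xcr1, which marks the same dendritic cells as Clec9a, had 107 reads over all rats and log2 fold changes of 0.40 and 0.50 (adjusted p = 0.688 and 0.612). Of 6 tested dendritic cell markers, 1 was called higher in each comparison, beside 5.82% and 5.16% of all genes. It was Flt3 in MI (1.44, adjusted p = 0.0228) and Irf8 in MI + UA (0.53, adjusted p = 0.0209). The marker sum was 23.5 to 29.2 CPM in Sham, 26.2 to 33.6 in MI and 26.6 to 38.2 in MI + UA. Whether reads of one gene were counted in the other was not tested.

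**Figure D4:**
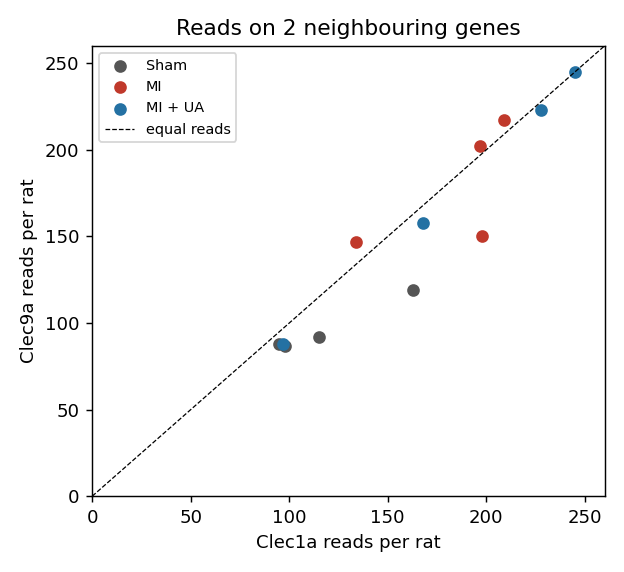
Reads on Clec9a (y axis) against reads on its neighbour Clec1a (x axis), 1 point per rat, coloured by group. Most points lie on or a little below the dashed line of equal reads; the lowest ratio, 0.73, is a Sham rat and the highest, 1.1, an MI rat.

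Clec14a, Clec16a and Clec1b did not pass the test in any comparison. Clec14a (ENSRNOG00000022697), an endothelial receptor known from vessel sprouting, measured 30, 22.7, 20.4 and 22.1 CPM in Sham rats 12, 17, 32 and 38. It measured 20, 11.9, 28.3 and 22.2 CPM in MI rats 36, 57, 61 and 89, and 22, 19.7, 16.9 and 19.9 CPM in MI + UA rats 29, 58, 64 and 66. The MI rats spread most, from the lowest to nearly the highest value of all. Its log2 fold change was -0.19 (SE 0.18, adjusted p = 0.57) in MI and -0.27 (SE 0.18, adjusted p = 0.401) in MI + UA. Of 8 endothelial markers, 1, the growth factor receptor Kdr, was called lower, and the marker sum was 770 to 888 CPM in Sham, 697 to 822 in MI and 648 to 782 in MI + UA. Clec1b, the platelet receptor for podoplanin, had 65 reads in all and log2 fold changes of 0.52 and 0.32 (adjusted p = 0.701 and 0.835).

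Clec16a (ENSRNOG00000057378) measured 64.6, 58.2, 59.9 and 66.8 CPM in Sham rats 12, 17, 32 and 38 and 62.7, 84.8, 62.1 and 56.3 CPM in MI rats 36, 57, 61 and 89. In MI + UA rats 29, 58, 64 and 66 it measured 60.9, 57.4, 60.2 and 66.6 CPM. Apart from rat 57 the rats lay within a narrow band. The log2 fold change had a 95% interval of -0.13 to 0.29 in MI and of -0.23 to 0.18 in MI + UA.

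**Figure D5:**
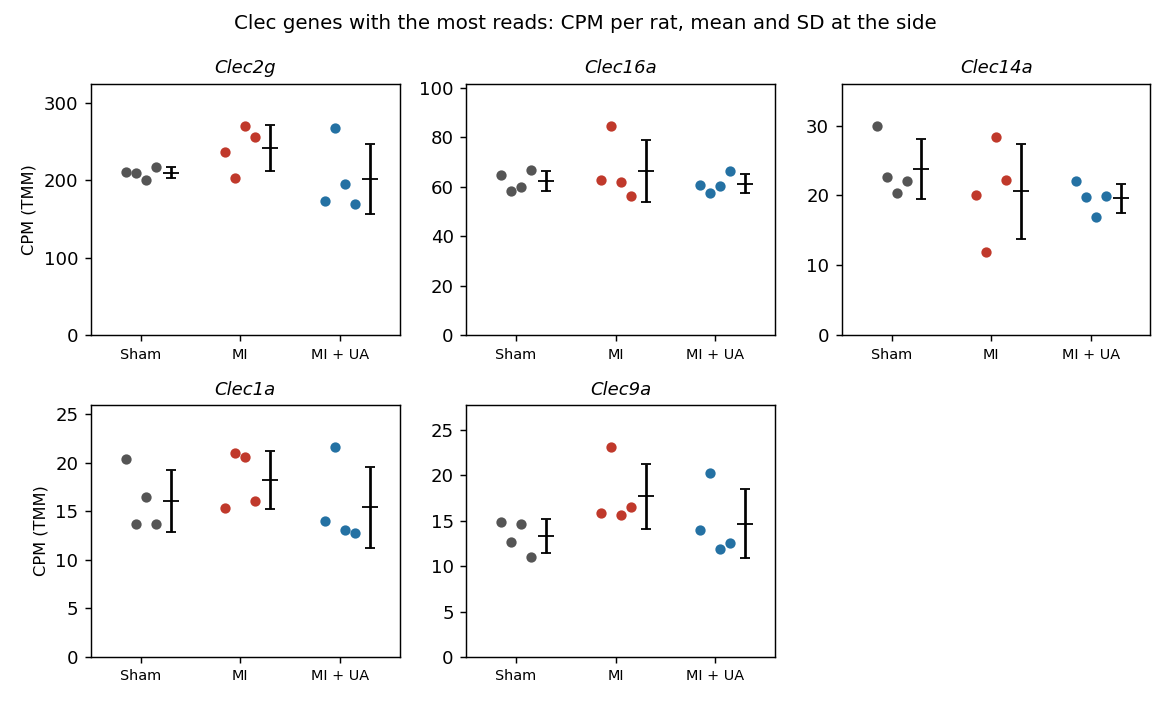
CPM per rat (y axis, 1 panel a gene) of the 5 further members with the most reads, in Sham (grey), MI (red) and MI + UA (blue), with the mean and SD (n = 4) at the side of each group. MI and Sham overlap in each panel except Clec9a, where the MI rats sit at 15.6 CPM or more and the Sham rats at 14.9 or less.

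Of 17 tested Klr receptors, 1 was called higher in MI versus Sham, Klra2, and 0 in MI + UA versus Sham, beside 5.82% and 5.16% of all genes. Klra2 (ENSRNOG00000031515) belongs to the Ly49 receptors, and its mouse counterpart is known from myeloid cells. It measured 5.9, 2.6, 3.7 and 3.22 CPM in Sham rats 12, 17, 32 and 38 and 7.46, 5.33, 7.37 and 7.01 CPM in MI rats 36, 57, 61 and 89. In MI + UA rats 29, 58, 64 and 66 it measured 6.06, 6.29, 5.68 and 6.41 CPM. Sham rat 12 reached into both infarcted groups, and the other Sham rats lay below them. The fitted log2 fold change was 0.82 (SE 0.21, adjusted p = 0.0138) in MI and 0.66 (SE 0.21, adjusted p = 0.0548) in MI + UA. In MI, the adjusted p was 0.0535 without Sham rat 17 and 0.0581 without Sham rat 38. The MI + UA value was called in 5 of 19 alternative settings, among them without Sham rat 12, at 0.95 (adjusted p = 0.0057).

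Receptors that define NK cells did not pass the test. Klrk1, or NKG2D, which senses stressed cells, averaged 3.26 ± 0.297 CPM in Sham, 3.37 ± 0.891 in MI and 2.8 ± 0.453 in MI + UA (SD, n = 4). Klrd1, or CD94, the partner chain of the Klrc receptors, averaged 2.36 ± 0.946, 2.54 ± 0.477 and 1.89 ± 0.563 CPM. The inhibitory chain Klrc1 had 62 reads in all. Klrc3 occurs as 2 rows, ENSRNOG00000052467 and ENSRNOG00000065970, with 262 and 248 reads and log2 fold changes of 0.53 and -0.05 in MI (adjusted p = 0.338 and 0.944).

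Klrb1c, of the receptor group that recognises Clec2 proteins, lay lower in MI than in Sham without overlap, which was so for 1 of the 43 members (2.33%) and for 7.56% of all genes. It averaged 1.8 ± 0.25 CPM in Sham, 0.915 ± 0.399 in MI and 0.946 ± 0.231 in MI + UA (SD, n = 4). Its log2 fold change was -0.98 (SE 0.37, adjusted p = 0.0966) in MI and -0.87 (SE 0.36, adjusted p = 0.145) in MI + UA. Klrb1a, of the same group, had 102 reads and values of 0.12 and -0.41 (adjusted p = 0.925 and 0.704). Of 7 NK cell markers in the table, Il2rb was called lower, by -0.70 in MI (adjusted p = 0.00167), and none higher. Their sum was 32.5 to 41.6 CPM in Sham, 22 to 32.1 in MI and 21.7 to 30.7 in MI + UA. Most of it was Il2rb, which averaged 22.4 CPM in Sham, 13.8 in MI and 14.1 in MI + UA. The other markers went both ways in MI. Fitted values were positive for Gzma, Nkg7 and Eomes, with no Sham reads for Gzma, and negative for Ccl5, Prf1 and Tbx21. The T cell markers summed to 6.06 to 11.3, 8.15 to 12.9 and 7.98 to 14.6 CPM, and of 9 tested, 0 were called in MI and 1, Lck, was higher in MI + UA (0.82, adjusted p = 0.0486).

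Klra5 had 0 reads in Sham, 14 in MI and 13 in MI + UA, with reads in all 8 infarcted rats. Pooled over rats, Klra5 was at 3.25 times the floor of 3 Sham reads in MI and 2.51 times in MI + UA. These ratios leave out counting error and the spread between rats. Klra5 entered the fit through the infarcted rats alone, so its p is not given. Klra17, another Ly49 gene, had 4 reads in Sham, 26 in MI and 19 in MI + UA (adjusted p = 0.148 and 0.451). Klra1 had 0, 4 and 8 reads and Klra22 had 5, 15 and 14. Klrg2, with 198 reads, Klre1, with 89, Klri1, with 45, Klri2, with 16, and Klrg1, with 13, overlapped between groups in every comparison, as did Clec20a, with 187, and the liver and lymph node sinusoid lectin Clec4g, with 26.

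Other genes with a C-type lectin domain and the signalling partners of the receptors were set beside the members. Of 27 tested lectin genes with other names, 6 were called higher in MI and 0 lower, beside 5.82% and 5.53% of all genes. They were the mannose receptors Mrc1 and Mrc2 (log2 fold changes 1.54 and 0.82), the stromal receptor Cd248 (1.07), the oxidised LDL receptor Olr1 (2.44), chondrolectin Chodl (3.89) and the scavenger receptor Colec12 (0.55). Chodl averaged 0.0361 ± 0.0722 CPM in Sham (SD, n = 4), so its fold changes rest on a base near 0. In MI + UA the same 6 had 1.34, 0.83, 0.90, 2.42, 4.98 and 0.50, the last with an adjusted p of 0.0838. In that comparison 7 of the 27 were called higher, where 5.16% of all genes were, with Reg3b (1.24, adjusted p = 0.0225) and Atrnl1 (0.35, adjusted p = 0.0463) beside the first 5. Of 28 signalling partners, 7 were called higher in MI and 0 lower, beside 5.82% and 5.53% of all genes. Among them, the adaptor Fcer1g had 0.91 (SE 0.19, adjusted p = 0.00245) and the kinase Syk 0.78 (SE 0.21, adjusted p = 0.0174). Tyrobp, the adaptor of Clec5a, had 0.44 (SE 0.26, adjusted p = 0.338).

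UA was compared with vehicle among the infarcted rats. In MI + UA versus MI, 0 members and 0 genes (0%) had an adjusted p under 0.05 in edgeR, and DESeq2 also called 0 members. Only Clec2g had an unadjusted p under 0.05, where 3.79% of all genes did, and no member had groups apart, where 2.34% of all genes did. Clec2g measured 202 ± 45.6 CPM in MI + UA and 242 ± 29.3 in MI (SD, n = 4), a log2 fold change of -0.26 (SE 0.12, unadjusted p = 0.0368, adjusted p = 1). It was -0.10 with rat 66 counted as MI and -0.43 without MI + UA rat 58 (adjusted p = 0.352). With rat 66 as MI, those of Clec11a and Clec10a went from -0.23 and -0.21 to -0.02 and -0.04. For Clec2dl1 the log2 fold change was -0.04 with a 95% interval of -1 to 0.91. The interval was -0.57 to 0.11 for Clec11a, -0.56 to 0.33 for Clec3b, -0.5 to 0.08 for Clec10a and -0.54 to 0.21 for Klra2. It was -0.04 to 1.21 for Clec5a and -0.17 to 1.4 for Clec7a, the 2 members called against Sham whose fitted value was higher with UA.

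The order of the rats differed between Clec2dl1 and the 6 other members called against Sham. Rat 57, with 6829591 reads the thinnest MI library, was the lowest MI rat for 5 of these 7, and its macrophage and fibroblast marker sums were 288 and 1370 CPM. In MI + UA, rats 29 and 66 were each lowest for 3 of the 7. Rat 66 had the lowest macrophage sum of the infarcted rats, 224 CPM, and the highest cardiomyocyte sum, 43100 CPM. Rat 58 was highest of its group for Clec2dl1, Clec10a and Clec11a, and rat 64 for Clec3b, Clec5a and Clec7a. The part of depth and of tissue makeup in these orders was not tested.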

How the data were processed

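Left ventricular RNA was extracted from fixed sections, depleted of ribosomal RNA and sequenced as strand-specific read pairs. The authors aligned the reads with STAR 2.6.1c to mRatBN7.2 and deposited raw counts per Ensembl gene from htseq-count, with 1 column per rat. No-feature reads were 37.9% to 46.6% of all counted reads, ambiguous reads 3.18% to 3.84%, and non-unique reads 2.05% to 2.53%; these 5 summary lines were left out. How fixation and ribosomal depletion bear on these shares was not tested.

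A total of at least 10 counts was required for testing, which used edgeR 4.0.16 (TMM, quasi-likelihood test, 3 groups in one fit, threshold 0.05 after Benjamini-Hochberg adjustment over 18182 genes) in R 4.3.3. CPM are counts per 1000000 of the TMM-scaled library. SEs are the absolute log2 fold change divided by the square root of the quasi-likelihood F. The 95% intervals of log2 fold changes are the value plus or minus 1.96 SE. This normal approximation is narrower than the F test would give, so an interval can exclude 0 where the unadjusted p is above 0.05. Every symbol starting with Clec or Klr was accounted for. Values per rat are given for Clec2dl1, for members with an adjusted p under 0.05 in any comparison, and for the 5 further members with the highest mean CPM. Genes of other lists are named where called in MI versus Sham, at most 6 per list by smallest p; Tyrobp, Xcr1 and all further names were chosen after their values were seen. The members and lists were chosen with earlier results of these data known. Alternatives were DESeq2 1.42.0, its size factors, 2 other filters, TMM without mitochondrially encoded genes, 2-group fits, rat 66 as MI, and leaving out each rat. The test was checked on simulated counts. The labels name 1 library per rat; no batch is given. Sequences are from a RefSeq promoter table (GRCr8), which held 41 of 51 member symbols, and neighbours from the RefSeq gene table, which held 50. A further MI + UA library named in the study was not analysed here.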

Additional observations from a re-analysis of the deposited data

Results flagged for a closer look

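In 4 of the 36 sets of 4 rats examined, 12 genes in 3 groups, 1 rat stood apart from the other 3, measured as its gap to the nearest rat divided by the range of the group, both in log2 CPM with a prior count of 1; chance gives about 1 in 20. Clec5a was highest in MI rat 89, with a gap of 0.884 of the range and 31 reads. Clec9a was highest in MI rat 57, with a gap of 0.859 and 147 reads. Clec3b was highest in MI + UA rat 64, with a gap of 0.851 and 43 reads. Clec1a was highest in MI + UA rat 58, with a gap of 0.832 and 168 reads.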

How the results depend on the processing

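Clec2dl1 is left out of these counts. In MI versus Sham 5 members were called, 8 with no filter beyond 1 count, and 3 to 6 with single rats left out, the 3 without Sham rat 17. Klra5, which had no Sham read, is among the 8 and among the 6 called without MI + UA rat 64. In MI + UA versus Sham 4 were called, 7 with edgeR's filterByExpr, 8 with no filter beyond 1 count, 7 with rat 66 counted as MI, and 3 to 8 with single rats left out, the 8 without rat 66. The 8 called without rat 66 include Klra5. Fewer or more genes were tested under the filters; for rats 17 and 66 the cause was not tested. In MI + UA versus MI the count was 0 under each alternative. DESeq2 called 6 members in each comparison with Sham and gave no adjusted p for 17 and 15 members. Clec11a, Clec10a and Clec3b kept their call in MI versus Sham under all alternatives run, Clec5a lost it without Sham rat 12, Sham rat 17 or MI rat 89, and Klra2 without Sham rat 17 or 38. Clec3b lost its call in MI + UA versus Sham without Sham rat 12, Sham rat 17 or MI + UA rat 64. Small log2 fold changes that were not called changed sign. Clec2dl1 in MI + UA versus MI was 0.12 in DESeq2, 0.37 with rat 66 as MI and -0.69 to 0.49 with single rats left out. With rat 66 as MI, Clec3b in MI + UA versus MI was 0.06 and Clec2g in MI + UA versus Sham was 0.02. Leaving out single rats gave -0.22 to 0.02 for Clec2g, -0.07 to 0.01 for Clec16a, -0.27 to 0.06 for Clec1a and -0.04 to 0.21 for Clec9a in MI + UA versus Sham. It gave -0.18 to 0.02 for Clec16a and -0.24 to 0.10 for Clec14a in MI + UA versus MI, and -0.05 to 0.15 for Clec16a in MI versus Sham. Depth limits the 19 members with 10 or more but under 100 reads. No paired analysis was possible because the groups share no rats or rat numbers.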
